A study of Mus musculus with 4 samples.

Results

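The nuclear genes of the mitochondrial respiratory chain were compared between objective day and subjective day in mouse eyes. They were taken by name from the table of gene values: every gene whose name begins with Nduf, Uqcr or Atp5, or with Cox followed by a digit from 4 to 8, together with Sdha, Sdhb, Sdhc, Sdhd and Cyc1, pseudogenes marked -ps left out. This gave 91 of the 22863 genes listed, and 82 of them encode subunits or subunit isoforms: 38 of complex I, 4 of complex II, 9 of complex III, 16 of complex IV and 15 of complex V. The other 9 carry such a name without being a subunit; 7 are Ndufaf genes, which help assemble complex I, and the remaining 2 are Atp5s and Atp5sl.

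All 4 samples came from C3H/f+/+ mice, a melatonin-proficient strain without the Pde6b mutation that causes retinal degeneration in other C3H mice, entrained to alternating light and dark. The 2 subjective day samples were collected at circadian time (CT) 6 after 18 hours of darkness according to the animal protocol, although one passage of the study gives a longer stay in the dark. The 2 objective day samples were collected at zeitgeber time (ZT) 6 from mice that had seen light that morning and were then kept dark for 1 hour. Each sample pooled 4 eyes of 2 mice, a female and a male, after removal of the anterior eye and lens, so that retina, retinal pigmented epithelium (RPE), choroid and posterior sclera were measured together. The age of these mice was not given beyond that the groups were age-matched. The comparison therefore holds the clock time near noon and differs in morning light and in the length of darkness, which cannot be told apart. In such bulk tissue, fewer cells of a type and less RNA per cell cannot be told apart either.

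The respiratory chain passes electrons from food to oxygen along carriers in the inner mitochondrial membrane. Complex I (NADH dehydrogenase) and complex II (succinate dehydrogenase) feed electrons to ubiquinone, complex III (the cytochrome bc1 complex) hands them to cytochrome c, and complex IV (cytochrome c oxidase) reduces oxygen. Complexes I, III and IV pump protons, and complex V (ATP synthase) uses the proton gradient to make ATP. Most subunits are encoded in the nucleus and imported, while a small set is encoded by mitochondrial DNA, and complex II has no mitochondrially encoded subunit. Rod photoreceptors pack mitochondria into their inner segments and have a high demand for ATP, which is higher in darkness, when the channels of the outer segment are open.

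The deposited values are counts per gene after an adjustment for library size by the authors. They carry decimals, are not raw counts, and do not give the depth, because the adjustment made their totals nearly equal, at 33278417 to 35236783. The 8 rod marker genes summed to 5.84% to 7.33% of these totals, and 5 of 6 RPE markers were tested, so the labelled tissue was present. Best1, the remaining RPE marker, was at 0 in one subjective day sample and at no more than 9.70 elsewhere. Material from the removed anterior eye was uneven: the summed lens markers were 6266 and 342 in subjective day, against 4494 and 867 in the objective day samples. Of 4 cornea markers, Krt12 was listed between 1.78 and 12.5 and was not tested. The other 3, Krt5, Krt14 and Aldh3a1, were all lower in objective day. Their part in the values below was not tested. Differences are given as log2 fold changes, objective minus subjective day, of value + 1, with the standard error (SE) from limma and p-values adjusted by the method of Benjamini and Hochberg over 17784 genes. A gene was tested where 2 or more samples had a value of 10 or higher. All 91 chain genes passed this filter. The smallest p that an exact permutation test can give with 2 samples in each condition is 0.333, and the calls below come from limma's moderated test, which borrows the spread of other genes.

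At an adjusted p under 0.05 (limma), 3 of the 91 were lower in objective day, namely Uqcrb, Ndufaf4 and Atp5j, and 0 were higher. That is 3.30% of the chain genes, compared with 8.51% of all genes tested, of which 7.45% were lower and 1.06% were higher. At an unadjusted p under 0.05, 10 chain genes were lower and 7 were higher, or 18.7% together, compared with 15.9% lower and 9.51% higher, or 25.4% together, of all genes. This share depended on the settings. It was 29.7% compared with 28.6% of all genes with each sample scaled to its median, and 28.6% in both with upper quartile scaling. In alternatives described below, it was 37.4% compared with 34.4% with a replicate block and 13.2% compared with 12.6% with the GC trend removed. With a variance prior that does not follow the mean it was 5.49% compared with 20.2%. With the other pseudocounts and filters it stayed below the share of all genes. The median log2 fold change was 0.05 over the 91 genes and 0.01 over all genes, and the fold changes of the chain genes were less spread, with a standard deviation of 0.17 compared with 0.34. The log2 fold change lay within 0.26 of 0, a rise of 20% or the same fold downwards, for 83 of the 91 (91.2%), compared with 72.1% of all genes. The genes compared were not matched for level. Values of 10 in 2 samples passed the filter, while the lowest value of any chain gene was 64.8 (Ndufa4l2). The part of level in the smaller spread was not tested.

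How small a difference could have been seen is set by the intervals. The 95% confidence interval reached a median of 0.18 to either side on the log2 scale, from 0.14 for the most precise gene to 0.52 for the least precise. For 33 chain genes the whole interval lay within 0.26 of 0, so a larger change was outside the interval for these. For the other 58, among them the 3 called genes, the interval reached past that bound, so no statement of equality can be made for them. The 2 conditions did not overlap for 42 chain genes (46.2%), 26 higher and 16 lower in objective day, or 28.6% and 17.6%. Of all genes, 56.1% did not overlap, 27.9% higher and 28.2% lower.

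**Figure D1:**
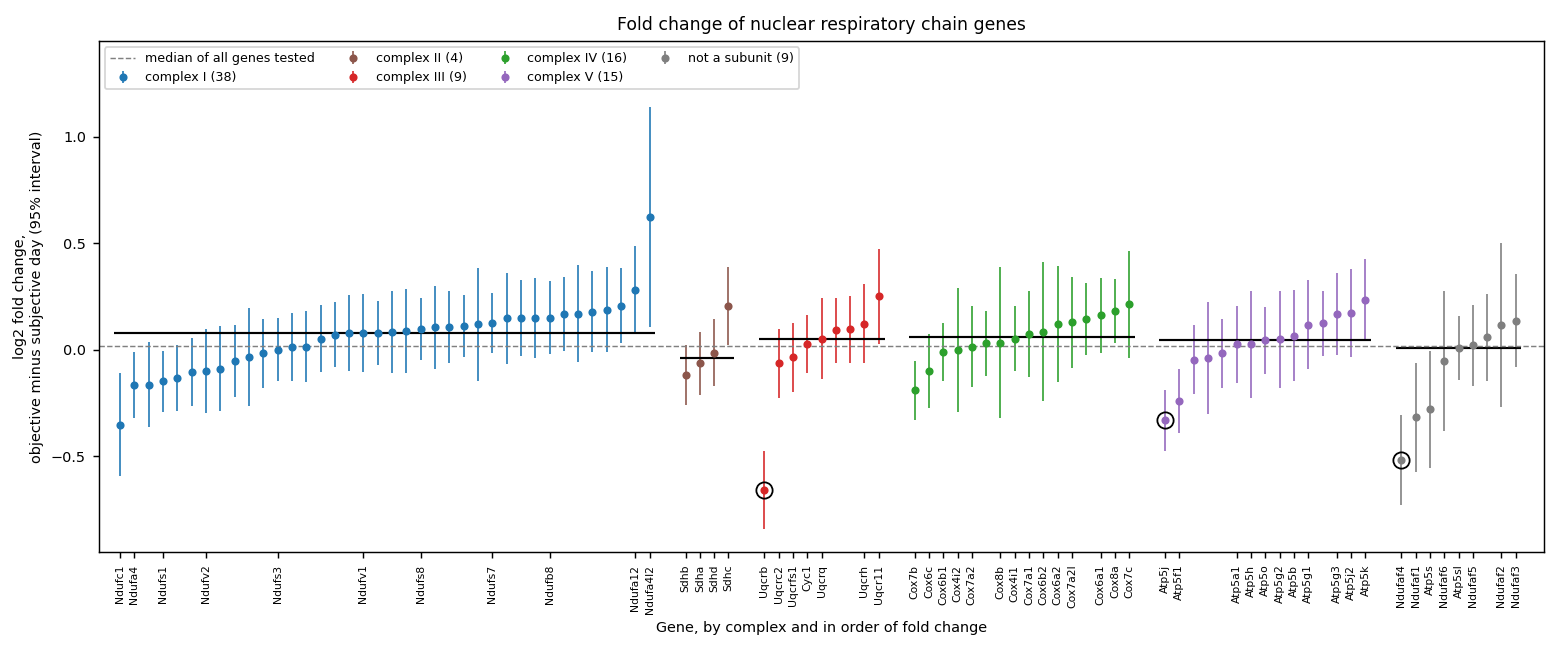
Log2 fold change, objective minus subjective day, of the 91 genes (points) with 95% confidence intervals (lines), grouped by complex and ordered by fold change; black bars are the medians of each group, the dashed line is the median of all genes tested, and circles mark the called genes, with names under the genes named in the text. Of the 91 genes only Uqcrb, Ndufaf4 and Atp5j are circled, all below 0, while the medians of complexes I, III, IV and V lie slightly above 0.

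Uqcrb encodes the ubiquinone-binding protein of complex III, a small subunit on the matrix side. Its values were 1671 and 1581 in subjective day, against 1089 and 974 in the objective day samples. Both objective day samples were well below both subjective day samples. The log2 fold change was -0.66 (SE 0.08, 95% interval -0.84 to -0.47, adjusted p = 0.00559, limma). The mean fell by 36.6%, and the value was the most negative of the 91. Uqcrb (chr13:66900617-66905378, minus strand, GRCm38) has a principal transcript of 535 bases, and 43.4% of the stretches of 50 bases in it, the read length, also occur in transcripts of other genes, mainly 4 processed pseudogenes. Of these, Gm16089 shares the most and was listed between 0 and 2.19. Its exons also overlap the antisense gene Gm10767, which was listed between 56.7 and 65.4 and whose log2 fold change was -0.17 (adjusted p = 0.64, limma), and the strand setting of the counting was not given. The GC content of the transcript is 42.2%, and once the trend with GC content was removed the log2 fold change was -0.36 (adjusted p = 0.12, limma).

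Ndufaf4 encodes an assembly factor that helps build the early intermediates of complex I and is not part of the finished enzyme. Its values were 764 and 864 in the subjective day samples, compared with 581 and 552 in the objective day samples. The conditions did not overlap, and the mean fell by 30.4%, with a log2 fold change of -0.52 (SE 0.09, 95% interval -0.73 to -0.31, adjusted p = 0.0156, limma). None of its stretches of 50 bases occurs in another gene's transcripts (chr4:24898083-24905001, plus strand). Its transcript has a GC content of 39.5%, among the lowest of the chain genes, and with the GC trend removed the log2 fold change was -0.0047 (adjusted p = 0.988, limma). Without the second objective day sample the call was lost, while the log2 fold change was -0.48 (SE 0.13).

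Atp5j encodes coupling factor 6, a subunit of the peripheral stalk that holds the catalytic head of ATP synthase still. Its values were 2588 and 2519 in subjective day, against 1981 and 2077 in the objective day samples. The replicates lay close together and the conditions did not overlap. The mean fell by 20.5% in objective day, with a log2 fold change of -0.33 (SE 0.06, 95% interval -0.48 to -0.19, adjusted p = 0.0195, limma). With a GC content of 56.0%, Atp5j was the one call that remained after the GC trend was removed, at -0.43 on the log2 scale (adjusted p = 0.0282, limma). The gene (chr16:84827866-84835625, minus strand) starts head to head with Gabpa, which encodes the DNA-binding subunit of the GABP transcription factor, and their exons overlap on opposite strands. Gabpa was listed at 1565 and 1431 in subjective day, against 1285 and 1375 in objective day, a log2 fold change of -0.17 (adjusted p = 0.208, limma). The call of Atp5j was lost when either objective day sample was left out, with an adjusted p from limma of 0.155 without the first and 0.0809 without the second, while the log2 fold change was -0.30 and -0.37, each with an SE of 0.10. None of the 3 calls was made when the shared spread was not allowed to follow the mean level, a setting in which limma called 0 of all 17784 genes (3586 at an unadjusted p under 0.05).

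**Figure D2:**
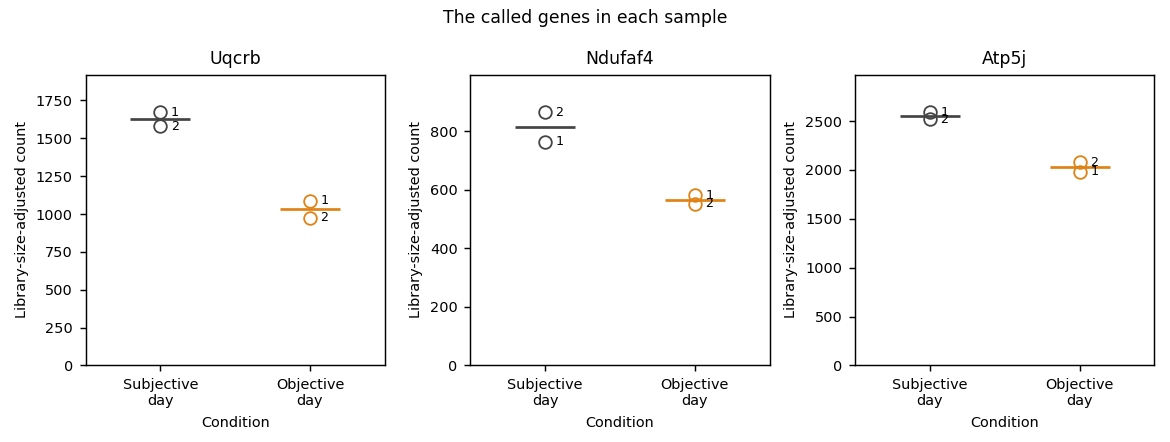
Library-size-adjusted counts of Uqcrb, Ndufaf4 and Atp5j in each of the 4 samples (open circles, numbered by replicate), with the mean of each condition as a bar and axes that start at 0. In all 3 panels both objective day samples lie below both subjective day samples.

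No other subunit of complex III was called. Of its 9 subunits, 6 had a positive and 3 a negative fold change, with a median of 0.05. Cyc1, the cytochrome c1 heme protein that passes electrons on to cytochrome c, was listed at 4846 and 4763 in subjective day, against 4985 and 4804 in objective day, with a log2 fold change of 0.03 (SE 0.06). Uqcrfs1, the Rieske iron-sulfur protein, was listed at 2393 and 2296 in subjective day, against 2387 and 2187 in objective day, with a log2 fold change of -0.04 (SE 0.07). For both catalytic subunits the conditions overlapped. Uqcrc2, a core protein, had the next lowest fold change after Uqcrb, at -0.06 (SE 0.07). At the other end were Uqcr11, a small accessory subunit, at 0.25 (SE 0.10, adjusted p = 0.154, limma), and the hinge protein Uqcrh at 0.12 (SE 0.08). Uqcr11 was listed at 2528 and 2152 in subjective day, against 2953 and 2610 in objective day, so that its conditions did not overlap.

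Complex I, the largest of the complexes, had no called subunit among 38, whether lower or higher in objective day (adjusted p, limma); 6 had an unadjusted p under 0.05, 3 in each direction. Its median log2 fold change was 0.08, and 27 of the 38 were positive. The 7 core subunits, which carry the flavin, the iron-sulfur clusters and the ubiquinone site, lay between -0.15 and 0.12. Ndufs1, the large iron-sulfur subunit of the NADH-oxidizing module, was listed at 3486 and 3353 in subjective day, against 3004 and 3166 in objective day. Its conditions did not overlap, with a log2 fold change of -0.15 (SE 0.06, adjusted p = 0.184, limma), or -0.05 with the GC trend removed. The other core subunits of that module were Ndufv1, which binds NADH and flavin, at 0.08 (SE 0.08), and Ndufv2 at -0.10 (SE 0.08), which became 0.22 with the GC trend removed. In the module that reduces ubiquinone, the log2 fold change was 0.0003 for Ndufs3, 0.12 for Ndufs7 and 0.10 for Ndufs8, each with an SE of 0.06. With the GC trend removed these 3 were at -0.07, -0.0046 and -0.01, and Ndufv1 was at -0.03. Without that removal Ndufs3 was the flattest of the 91, at 1767 and 1703 in subjective day, against 1773 and 1699 in objective day.

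The 31 accessory subunits of complex I, which stabilize the core without carrying out electron transfer, ranged in log2 fold change from -0.35 to 0.62 around a median of 0.09. Lowest was Ndufc1, a small membrane subunit, at 1590 and 1419 in subjective day, against 1291 and 1071 in objective day. The conditions did not overlap, and the log2 fold change of -0.35 (SE 0.10) missed the threshold with an adjusted p of 0.083 (limma). With the GC trend removed it was -0.16. Next was Ndufa4 at -0.17 (SE 0.07, adjusted p = 0.169, limma), which became 0.03 with the GC trend removed. Ndufa4 was named as a complex I protein and is now placed in complex IV. Moving it and its paralog Ndufa4l2 to complex IV gave medians of 0.08 and 0.06, the same 2-decimal values as before.

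The highest fold changes of complex I were those of Ndufa4l2 and Ndufa12. Ndufa4l2, a paralog of Ndufa4 that is known as a target of hypoxia signalling, was listed at only 96.9 and 64.8 in subjective day, against 129 and 117 in objective day. The conditions did not overlap, but the replicates of subjective day were far apart, and the log2 fold change of 0.62 had an SE of 0.22 (adjusted p = 0.133, limma). Ndufa12, a subunit of the peripheral arm, was listed at 1481 and 1333 in subjective day, against 1825 and 1597 in objective day, with a log2 fold change of 0.28 (SE 0.09, adjusted p = 0.1, limma). Ndufa4l2 is also known from pericytes. Smooth muscle and pericyte markers, listed together, had positive fold changes in 5 of 6 genes with a median of 0.21. The largest were those of Myh11 (0.40), Acta2 (0.29) and Tagln (0.29), followed by Pdgfrb (0.14) and Cspg4 (0.12). Rgs5, the most abundant of the 6, went the other way at -0.16 (SE 0.08, adjusted p = 0.239, limma). Its values were 4787 and 4343 in subjective day, against 4276 and 3899 in objective day, without overlap. The summed level of the 6 was 8652 and 8048 in subjective day, against 9015 and 8174 in objective day. Of these markers 0 were called, 3 had an unadjusted p under 0.05, and none was at 0. Their part in the value of Ndufa4l2 was not tested.

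The 7 Ndufaf assembly factors of complex I had 0.02 as their median log2 fold change, and 1 of them, Ndufaf4, was called. Ndufaf1, which acts in the assembly of the membrane arm, followed at -0.32 (SE 0.11, adjusted p = 0.123, limma), from 353 and 341 in subjective day to 296 and 262 in objective day. Both objective day samples were again below both subjective day samples. At the upper end were Ndufaf3, which works together with Ndufaf4, at 0.14 (SE 0.09), and Ndufaf2 at 0.12 (SE 0.16). The conditions overlapped for Ndufaf3. Among 34 assembly factors of the 5 complexes with other names, 0 were called and 10 had an unadjusted p under 0.05, and their median was 0.03. The remaining 2 genes are named after ATP synthase without being subunits of it. Atp5s had a log2 fold change of -0.28 (SE 0.12, adjusted p = 0.191, limma), which became 0.28 with the GC trend removed. Atp5sl, named Dmac2 in GENCODE M21, had a log2 fold change of 0.01 (SE 0.06).

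Complex II links the chain to the citrate cycle, and none of its 4 subunits was called (limma). Sdha, the flavoprotein that oxidizes succinate, was listed at 11148 and 10839 in subjective day, against 10744 and 10302 in objective day, which gave a log2 fold change of -0.06 (SE 0.06, 95% interval -0.21 to 0.08). Sdhb, the iron-sulfur subunit, was listed at 2906 and 2819 in subjective day, against 2691 and 2579 in objective day, a log2 fold change of -0.12 (SE 0.06, adjusted p = 0.262, limma). For both of these catalytic subunits, objective day was lower without overlap, by less than 10% of the level.

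Sdhc and Sdhd anchor complex II in the membrane. Sdhc was listed at 2567 and 2286 in subjective day, against 2907 and 2682 in objective day, a log2 fold change of 0.20 (SE 0.08, adjusted p = 0.155, limma), without overlap. Sdhd was listed at 1491 and 1590 in subjective day, against 1558 and 1491 in objective day, a log2 fold change of -0.01 (SE 0.07), with overlap. Of the 4, Sdhc alone had an unadjusted p under 0.05. Of 13 citrate cycle enzymes, 5 had a negative fold change, and the median was 0.02. Only 1 was called lower, the dihydrolipoamide dehydrogenase Dld at -0.40 (SE 0.07, adjusted p = 0.014, limma). Dld was not called with the GC trend removed.

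Complex IV had no called gene among 16 (adjusted p, limma), 2 with an unadjusted p under 0.05, and its fold changes kept within the narrowest range of the larger complexes, from -0.19 to 0.21 with a median of 0.06. Cox7b was lowest among the ubiquitous subunits at 2930 and 2916 in subjective day, against 2504 and 2620 in objective day. Both objective day samples were below, with a log2 fold change of -0.19 (SE 0.06, adjusted p = 0.0976, limma), which became 0.13 once the GC trend was removed. Next lowest was Cox6c at -0.10 (SE 0.07). Highest were Cox7c at 0.21 (SE 0.11, adjusted p = 0.263, limma) and Cox8a at 0.18 (SE 0.06, adjusted p = 0.136, limma). Cox8a was listed at 6729 and 6378 in subjective day, against 7624 and 7219 in objective day, without overlap. For Cox7c, 53.0% of the stretches of 50 bases occur in transcripts of other genes, so its level is uncertain. How reads that match several genes were counted was not given.

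Several complex IV subunits have a second isoform that is made in particular tissues, and none of the 5 such isoforms was called (limma), had an unadjusted p under 0.05 or was free of overlap. Cox6a2, Cox7a1 and Cox8b are the isoforms of heart and skeletal muscle. Per kb of transcript they made up 15.0% to 18.1%, 16.8% to 20.2% and 17.9% to 23.0% of their families in the 4 samples. Their log2 fold changes were 0.12 (SE 0.12), 0.07 (SE 0.09) and 0.03 (SE 0.15). The Cox7a family here included Cox7a2l, at 40.6% to 44.0% of it, beside Cox7a2 at 37.7% to 40.2%. The share of Cox7a1 beside Cox7a2 alone was therefore larger than the value given. Cox4i2, known from lung and from hypoxia, made up 5.94% to 6.93% of the Cox4i family with a log2 fold change of -0.0031 (SE 0.12). Cox6b2, known from testis, made up 8.44% to 10.1% of the Cox6b family with a log2 fold change of 0.08 (SE 0.14). Cox8b was the most uneven between replicates of objective day, at 1476 and 1033, compared with 1168 and 1249 in subjective day.

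None of the ubiquitous partners of these isoforms was called either (limma). Cox4i1 had a log2 fold change of 0.05 (SE 0.06), Cox6a1 of 0.16 (SE 0.08), Cox6b1 of -0.01 (SE 0.06) and Cox7a2 of 0.01 (SE 0.08), beside the 0.18 of Cox8a given above, and for Cox6a1 and Cox8a the conditions did not overlap. Cox7a2l, a relative of Cox7a2 that joins complexes III and IV into supercomplexes, had a log2 fold change of 0.13 (SE 0.09). Markers of skeletal muscle, a tissue attached to the outer eye, were present at a summed level of 93534 to 106157, with 0 of 14 called, 1 at an unadjusted p under 0.05, and none at 0. Summed markers of fat, which also uses Cox8b and Cox7a1, were 1951 and 4761 in subjective day, against 4430 and 1612 in objective day; 0 of 6 were called, 0 had an unadjusted p under 0.05, and none was at 0. The samples with the higher level of fat markers were thus the second of subjective day and the first of objective day, which were also the higher of each condition for Cox8b and Cox7a1. The part of these tissues in the isoform levels was not tested.

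Complex V had 1 called gene among 15, Atp5j, and a median log2 fold change of 0.04. The 5 subunits of the catalytic F1 head lay between -0.05 and 0.12. Atp5b, the catalytic beta subunit, was listed at 39683 and 35763 in subjective day, against 40560 and 38316 in objective day. Its conditions overlapped, with a log2 fold change of 0.07 (SE 0.09). Atp5a1, the alpha subunit, was listed at 26017 and 24447 in subjective day, against 26310 and 25045 in objective day, a log2 fold change of 0.03 (SE 0.08), also with overlap.

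Among the 10 subunits of the stalk and the membrane part, the range was from -0.33 to 0.24. Atp5f1, subunit b and a neighbour of coupling factor 6 in the peripheral stalk, was second lowest after Atp5j. It was listed at 3692 and 3479 in subjective day, against 3120 and 2946 in objective day, without overlap, and its log2 fold change of -0.24 (SE 0.06) missed the threshold at an adjusted p of 0.0632 (limma). It was -0.22 with the GC trend of the principal transcript removed and 0.43 with that of the longest transcript removed (adjusted p = 0.0818, limma), so its direction depended on the transcript chosen. The remaining stalk subunits Atp5o and Atp5h were at 0.04 (SE 0.07) and 0.03 (SE 0.11). The membrane subunits Atp5k and Atp5j2, subunits e and f of the enzyme, were highest, at 0.24 (SE 0.08, adjusted p = 0.127, limma) and 0.17 (SE 0.09). Atp5k was listed at 1653 and 1448 in subjective day, against 1880 and 1763 in objective day, without overlap.

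The c subunits, which form the rotating ring, come from 3 genes that encode the same mature protein. Atp5g3 made up 54.9% to 58.2% of their level per kb, Atp5g1 23.8% to 24.6% and Atp5g2 17.8% to 21.2%. None of the 3 was called and the 95% intervals of all 3 included 0. The log2 fold changes were 0.17 (SE 0.08) for Atp5g3, 0.12 (SE 0.09) for Atp5g1 and 0.05 (SE 0.10) for Atp5g2, and the interval of Atp5g3 ran from -0.02 to 0.36. The share of Atp5g2 is uncertain, since every stretch of 50 bases in it occurs in transcripts of other genes, compared with 66.0% for Atp5g1 and 0% for Atp5g3.

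In level per kb of the principal transcript, the chain genes spanned more than the difference between conditions by far. Atp5b and Atp5a1 led complex V at 20140 and 10300 adjusted counts per kb over the 4 samples. Complex IV was led by Cox6a1 and Cox8a at 13580 and 12700 per kb, complex III by Uqcrq and Uqcrh at 7446 and 6518, and complex I by Ndufa4 and Ndufb8 at 8476 and 4872. Complex II was led by Sdha and Sdhb at 3710 and 2407, and the assembly factors lay between Ndufaf6 at 144 and Ndufaf5 at 521. Uqcrb, at 3123 and 2956 per kb in subjective day, against 2036 and 1821 in objective day, lay in the lower part of complex III. These levels depend on the transcript chosen for the length, and short transcripts are the least certain. Together the 91 genes took 0.848% and 0.787% of all adjusted counts in subjective day, and 0.865% in each objective day sample.

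**Figure D3:**
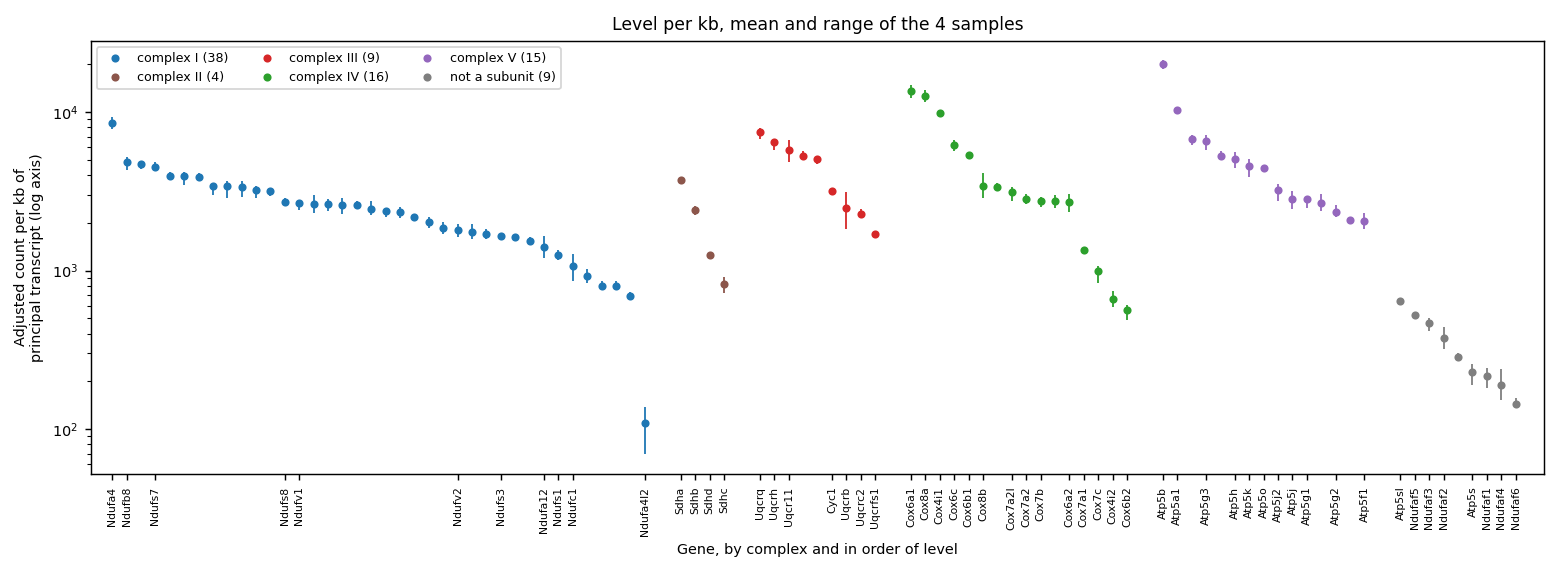
Adjusted count per kb of principal transcript on a log axis for the 91 genes, grouped by complex and ordered by level; points are means of the 4 samples and lines run from the lowest to the highest sample, with names under the genes named in the text. Atp5b is highest at 20140 per kb, the other subunits lie below it over more than 1 unit of the log axis, and Ndufa4l2 is the lowest subunit at 109.

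The replicates differed in a shared direction that bears on all of these values. The first subjective day sample was above the second for 80 of the 91 chain genes (87.9%), compared with 53.8% of all genes, by a median of 0.12 on the log2 scale. The first objective day sample was above the second for 73 (80.2%, compared with 55.1% of all genes), by a median of 0.07. In complexes III and V the first subjective day sample was higher for every subunit, 9 of 9 and 15 of 15. The 8 rod markers, none called and none at 0, moved likewise, each of them higher in the first sample of both conditions, by medians of 0.19 and 0.17, and their sums were 2311680 and 2036420 in subjective day, against 2556970 and 2280400 in objective day. Between the conditions their median log2 fold change was 0.16, with 7 of 8 positive and 4 higher in objective day without overlap. The part of rod content in the chain gene values was not tested. The differences between replicates were thus larger than the median difference between conditions, 0.05.

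Leaving out one sample changed the picture for the chain genes accordingly. Without the first subjective day sample, 13 chain genes (14.3%, compared with 4.87% of all genes) were called higher in objective day, among them Ndufa12, Ndufa4l2, Sdhc, Uqcr11 and Atp5k, and the median of the 91 was 0.12. Without the second subjective day sample, 0 were called higher (1.02% of all genes), 5 were called lower (5.49%, compared with 6.22% of all genes), and the median was -0.01. Those 5 were the 3 calls above together with Atp5f1 and Ndufc1. The small positive medians of complexes I, IV and V therefore rest on the second subjective day sample, and that of complex III was 0.01 without it, while Uqcrb was called lower with any one of the 4 samples left out, at log2 fold changes from -0.74 to -0.58.

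**Figure D4:**
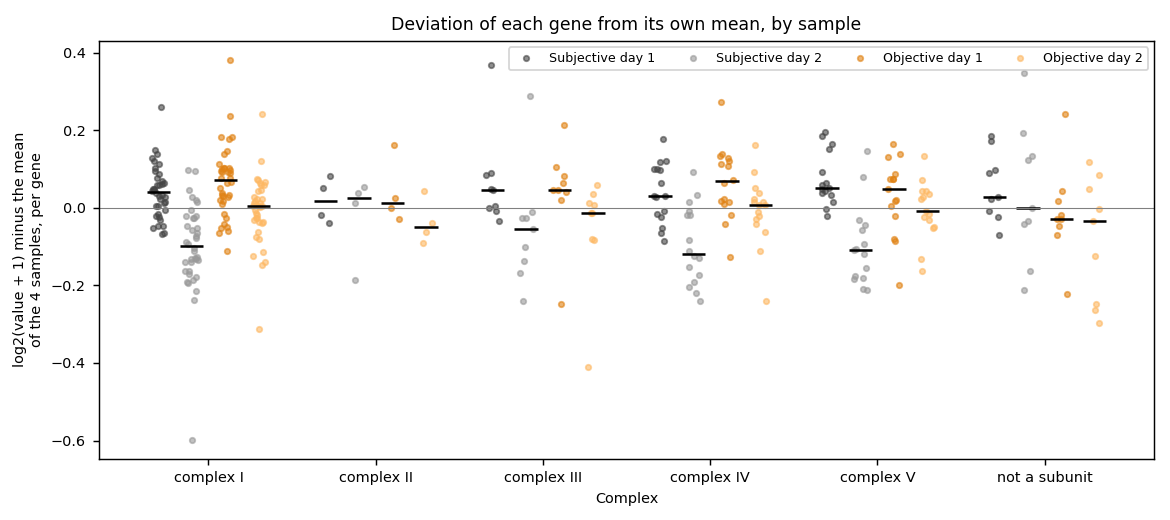
For each gene (points), log2(value + 1) minus the mean of its 4 samples, by complex and sample, with medians as black bars. In complexes I, III, IV and V the second subjective day sample has the lowest median, between -0.12 and -0.06, and both objective day samples lie between it and 0.07.

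The fold changes of the chain genes followed the GC content of their transcripts. Over the 91 genes, Pearson's r was 0.59 and Spearman's rho 0.53 between fold change and GC content, compared with 0.51 and 0.58 over all genes with a known GC content. These are correlations across genes of the same 4 samples, and genes are not independent replicates. Of the 10 chain genes with a GC content under 45%, 9 had a negative fold change, with a median of -0.18, and all genes of that class had a median of -0.29. Of the 29 chain genes with 55% or more, 2 had a negative fold change, with a median of 0.11, and all genes of that class had a median of 0.13. Spearman's rho was 0.61 within complex I (38 genes), 0.75 within complex III (9), 0.31 within complex IV (16) and 0.25 within complex V (15). Without Uqcrb and Ndufaf4 it was 0.49 over the remaining 89. With the GC trend removed, 1 chain gene was called, Atp5j (1.10%, compared with 1.02% of all genes), and the median of the 91 was 0.01. The medians of complexes I, III, IV and V, with all 4 samples kept, were then 0.03, -0.0067, 0.01 and -0.0025. The fold change then had the opposite sign for 34 of the 91, from negative to positive for 11 and from positive to negative for 23. Of the values given above, that of Ndufaf1 became -0.20, Uqcr11 0.13, Cox8a 0.06, Uqcrc2 0.12 and Sdhb -0.21. The cause of the trend was not tested, and removing it also removes any difference in RNA level that runs along GC content.

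**Figure D5:**
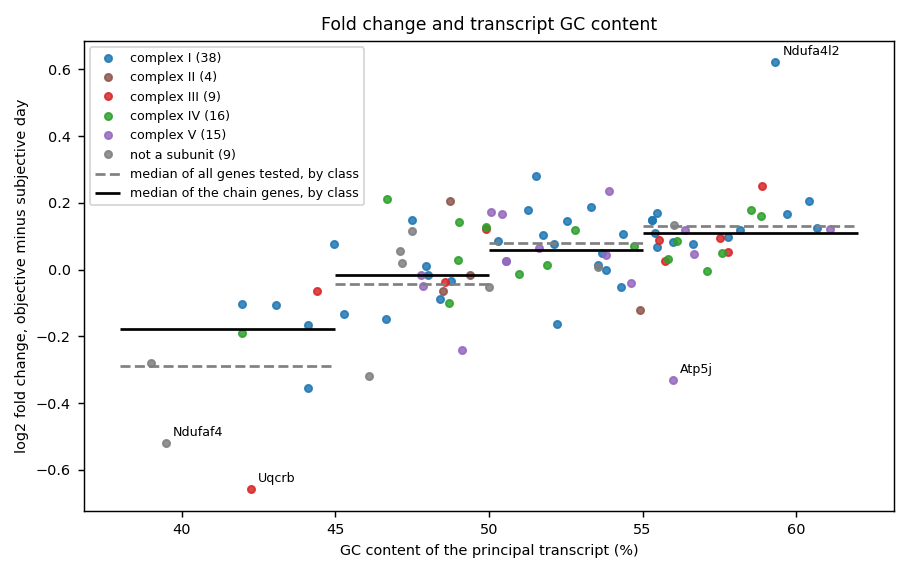
Log2 fold change against the GC content (%) of the principal transcript for the 91 genes, coloured by complex, with the medians of the chain genes (solid) and of all genes tested (dashed) in 4 classes of GC content. Both medians rise from the class under 45% to the class of 55% and over; Atp5j lies well below its class and Ndufa4l2 above.

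The chain genes share further features that bear on their measurement. Their principal transcripts had a median length of 838 bases, compared with 2630 for all genes tested, and a median GC content of 51.9%, compared with 50.5%. Of the 91, 48 share at least 1 stretch of 50 bases with another gene's transcripts, 34 of them with a pseudogene, and for 18 more than 25% of the stretches are shared. The median log2 fold change was 0.03 for these 18 and 0.05 for the 43 that share none. Exons of another gene lie on the opposite strand for 29 of the 91.

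Many nuclear chain genes are known to be driven by a few common factors, among them NRF-1, the ETS factor GABP (also called NRF-2) and YY1. Windows from 250 bases before to 50 bases after the start were taken from RefSeq (GRCm38.p6) for 75 of the 91 genes and searched on both strands for GCGCA and GCGC with any 1 base between them (NRF-1), CCGGAAG (ETS) and AANATGGC (YY1). The NRF-1 letters were found in 25.3% of the chain genes, compared with 5.19% of all 27025 genes with a window, the ETS letters in 22.7% compared with 9.93%, and the YY1 letters in 25.3% compared with 6.96%. At least 1 of the 3 was found in 48 of the 75 (64.0%), compared with 19.4% of all genes. The windows of the chain genes were also richer in GC, with a median of 58.3% compared with 52.8% of all genes, and the NRF-1 and ETS letters are themselves rich in GC. CCAAT was found in 44.0% compared with 41.1%, and TATAAA in 8.0% compared with 15.7%. A match is a description of these letters and not a site of binding.

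The NRF-1 letters were found for 6 of 14 genes of complex V and 7 of 33 of complex I, and the YY1 letters for 4 and 12 of them. Of the called genes, Ndufaf4 held the NRF-1 letters, 113 bases before its start, and Atp5j held the YY1 letters, 88 bases before one of its starts, as well as the ETS letters in the stretch it shares with Gabpa; Uqcrb had no window. The stretches around motifs of both called genes are shown with those of Cox6a1, Atp5h and Sdhd. The latter hold motifs of 2 factors before the start and were not called. Atp5k, Ndufs6 and Ndufs8 also hold motifs of 2 factors in the window, but not both wholly before the start, and are not shown. Each is given 5′ to 3′ on the strand of the gene, with the motif in capitals, and the ETS letters of Sdhd lie on the other strand and appear as their reverse complement.
Ndufaf4 (NRF-1, chr4:24897960-24897989, plus strand): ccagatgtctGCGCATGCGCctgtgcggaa
Atp5j (YY1, chr16:84835047-84835074, minus strand): aagtgtaggaAAGATGGCggagtcttag
Cox6a1 (NRF-1, chr5:115349101-115349130, minus strand): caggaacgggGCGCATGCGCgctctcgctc
Cox6a1 (NRF-1, chr5:115349056-115349085, minus strand): cggataaagtGCGCAGGCGCtggagttcct
Atp5h (NRF-1, chr11:115420041-115420070, minus strand): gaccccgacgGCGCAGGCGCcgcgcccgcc
Sdhd (ETS, chr9:50603879-50603905, minus strand): cgtctcctgcCTTCCGGttcacgcttc

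The 48 genes with at least 1 of the 3 motifs had a median log2 fold change of 0.05, with 31 positive, and the 27 without any had a median of 0.08, with 20 positive.

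The same complexes hold subunits encoded by mitochondrial DNA, of which 12 were in the table. Of these, 10 were called lower, with mt-Atp8 lowest at -2.70 and mt-Cytb highest at -0.75 around a median of -1.48. With the GC trend removed, 2 of the 12 were called lower and the median was -0.52. Within complex III, mt-Cytb at -0.75 (adjusted p = 0.0569, limma) lay beside Uqcrb at -0.66, Cyc1 at 0.03 and Uqcrfs1 at -0.04. Within complex V, mt-Atp8 and mt-Atp6 at -1.86 lay beside Atp5j at -0.33 and Atp5b at 0.07. Mitochondrially encoded transcripts had a median GC content of 36.5%, below that of every chain gene from the nucleus. Of 9 partners of the chain, 6 had a negative fold change and 2 were called lower, Cycs and Usmg5. Cycs, which encodes the cytochrome c that carries electrons from complex III to complex IV, was at -0.36 (SE 0.08, adjusted p = 0.0427, limma). Usmg5, a small protein of ATP synthase, was at -0.58 (SE 0.12, adjusted p = 0.0285, limma). Cycs was listed at 897 and 927 in subjective day, against 753 and 671 in objective day, and Usmg5 at 1428 and 1497 in subjective day, against 1117 and 857 in objective day. For both, each objective day sample was below each subjective day sample, and neither was called with the GC trend removed.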

How the data were processed

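RNA-seq was analysed for 2 subjective day and 2 objective day samples. According to the Methods, polyadenylated RNA was read as single reads of 50 bases on one lane, aligned with TopHat2 2.0.9 and Bowtie2 2.1.0 to Ensembl release 72, and counted per gene with HTSeq, and the authors compared the counts with edgeR. The strand setting, the filter and the scaling are not given in the sources used here. The deposited table gives each gene a signal in every sample, which is the count after scaling to a common library size by the authors; it carries decimals, and whole reads could not be recovered from it. A count test was therefore not used. The same table holds a log2 fold change and a mean log2 CPM computed by the authors, and the p-value and FDR of the authors' comparison; these were not used. No other column of sample values was present.

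Log2(value + 1) was compared between conditions with limma 3.58.1 in R 4.3.3 with a prior on the variance following mean expression, for genes with values of 10 or more in 2 or more samples, with adjustment by the method of Benjamini and Hochberg. The depth is unknown and the number of samples limits the precision. The labels describe the samples as biological replicates. The method was tested on simulated data. GC content, length, shared stretches and positions were taken from GENCODE M21 (GRCm38, the assembly of the authors' release), using for each gene the principal transcript by APPRIS class, then support level, then the shortest, known for 17536 of the 17784 genes. Local regression with a span of 0.3 removed each sample's GC trend. The members, gene lists, markers and naming rule were chosen with earlier results of these data known. Genes were named by rule: called genes, the 2 highest and 2 lowest fold changes and the 2 highest levels per kb in each complex, core subunits, complex II, Cyc1, Uqcrfs1 and isoform families; Atp5s, Atp5sl, Atp5o and Atp5h are given to complete their groups, and one gene the rule names is not reported here. Alternatives covered the pseudocount, filter, scaling, variance prior, threshold, replicate block, GC trend, the place of Ndufa4 and each sample left out; the GC trend from the longest transcript was added after seeing the data. Figures were drawn with matplotlib 3.10.9.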

Additional observations from a re-analysis of the deposited data

How the results depend on the processing

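The 3 lower and 0 higher calls were the same genes with pseudocounts of 0.5 and 10, without a filter, with a filter on the mean, and with median or upper quartile scaling. The number called lower was 0 with a variance prior that does not follow the mean, 1 with the GC trend removed, by the principal or the longest transcript (0.61% and 0.661% of all genes), and 6 at a threshold of 0.1 (11.1% of all genes). The number called higher was 1 (Cox7c) with the GC trend of the longest transcript removed (0.61% of all genes). With one sample left out, the lone sample of that condition being assumed to vary like the others, 1 to 5 were lower and 0 to 13 higher. The count of 1 lower came without objective day sample 2 (3.4% of all genes), and those of 5 lower and 13 higher came without subjective day samples 2 and 1. The medians then ran from -0.0079 to 0.144 in complex I, from -0.0019 to 0.1446 in complex IV and from -0.0285 to 0.1367 in complex V, lowest without subjective day sample 2 and highest without subjective day sample 1; the cause was not tested. The labels number the samples 1 and 2 in each condition without saying that a number marks a shared batch. With the number as a replicate block, 7 members were lower and 9 higher (13.1% and 7.21% of all genes), and with the GC trend removed as well 4 were lower and 3 higher (3.23% of all genes in each direction); Ndufv2 turned from -0.10 to 0.22 in that fit. Deviations of same-numbered samples correlated at 0.319 over all genes and at -0.037 over the 91. Such a correlation across genes does not register a shift that the genes share. The first sample was the higher for 80 of the 91 in subjective day and for 73 in objective day. With 2 samples in each condition and unknown depth, the median half-width of the 95% intervals was 0.18 on the log2 scale, so for a typical gene smaller differences could not be told from 0.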
